A study of Mus musculus with 18 samples.

Results

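Heat shock proteins and their partner chaperones were followed in the retinal pigment epithelium (RPE), the pigmented cell sheet that lies behind the photoreceptors of the eye. The set holds 10 genes picked by symbol from the 21859 rows of the count table: Hspa1a, Hspa1b, Hspa8, Hsp90aa1, Hsp90ab1, Hspb1, Hsph1, Dnajb1, Cryab and Bag3. All 10 were found and all 10 passed the filter on low counts, with at least 126 counts in every library for the least counted member, Hspa1b. Polyadenylated RNA of mouse RPE was amplified from low input and sequenced in 18 libraries. The groups were RPE of young mice (Young, 7 libraries), RPE of untreated aged mice (Old, 4 libraries), RPE of aged mice given AAV2-tTA alone (Old-Control, 3 libraries) and RPE of aged mice given AAV2-tTA with TRE-OSK (Old-OSK, 4 libraries). The AAV2 vector derives from an adeno-associated virus, and tTA is a transactivator that switches on genes placed behind the TRE promoter. OSK stands for the reprogramming factors Oct4, Sox2 and Klf4. All 7 vector-treated libraries therefore carry tTA, and the 4 Old-OSK libraries differ from the 3 Old-Control libraries by the TRE-OSK vector. The promoter that drives tTA, the strain, the ages, the doses and the number of animals behind a library are not given in the sources used here, so the p-values below measure the spread between these libraries only.

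Heat shock proteins keep other proteins folded. HSP70 proteins bind exposed stretches of unfolded clients in a cycle driven by ATP, J-domain proteins such as DNAJB1 hand clients over and speed up ATP hydrolysis, and nucleotide exchange factors such as HSPH1 and BAG3 release ADP and client. HSP90 completes the folding of kinases and receptors, and the small heat shock proteins HSPB1 and αB-crystallin hold unfolded proteins without ATP. Under proteotoxic stress the transcription factor HSF1 binds inverted repeats of the bases GAA in promoters and induces Hspa1a, Hspa1b, Hspb1, Dnajb1, Bag3 and Hsph1. Hspa8 and Hsp90ab1 are the constitutive forms, transcribed at high levels without stress. The RPE takes up shed photoreceptor tips every day and is exposed to light and oxygen, and αB-crystallin is known as one of its abundant chaperones.

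Stress-inducible members were considered here whose transcripts were the most variable of the set or lay apart between treated groups. Dnajb1 also lay apart but is left out, and the upstream sequences of 4 others are shown. They come from RefSeq (GRCm38.p6), where 6 of the 10 members had an entry with 8 start sites in all, and each run gives the 250 bases before the start site in the direction of transcription, with the 8-base motif GAANNTTC in capitals:
Hspa1a: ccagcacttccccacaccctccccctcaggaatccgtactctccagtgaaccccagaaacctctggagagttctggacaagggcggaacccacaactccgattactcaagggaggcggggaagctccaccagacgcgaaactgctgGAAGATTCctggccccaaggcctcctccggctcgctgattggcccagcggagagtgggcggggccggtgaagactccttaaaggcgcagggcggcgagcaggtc
Hspa1b: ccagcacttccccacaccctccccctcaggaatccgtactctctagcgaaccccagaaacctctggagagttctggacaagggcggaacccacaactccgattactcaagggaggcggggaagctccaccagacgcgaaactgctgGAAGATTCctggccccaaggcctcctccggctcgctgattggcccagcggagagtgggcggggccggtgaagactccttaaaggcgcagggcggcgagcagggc
Hspb1: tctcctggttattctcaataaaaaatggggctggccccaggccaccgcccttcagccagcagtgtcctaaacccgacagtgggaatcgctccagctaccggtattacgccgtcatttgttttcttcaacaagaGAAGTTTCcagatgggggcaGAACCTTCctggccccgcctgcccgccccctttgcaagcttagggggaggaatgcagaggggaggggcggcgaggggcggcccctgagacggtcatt
Bag3: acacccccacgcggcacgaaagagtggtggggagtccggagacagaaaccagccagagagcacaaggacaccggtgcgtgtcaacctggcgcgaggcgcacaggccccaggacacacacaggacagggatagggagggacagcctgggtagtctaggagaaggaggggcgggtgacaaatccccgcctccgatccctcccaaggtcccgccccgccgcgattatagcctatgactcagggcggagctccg
The Hspa1a window lies at chr17:34972157-34972406 and the Hspa1b window at chr17:34959239-34959488, both on the minus strand. The Hspb1 window lies at chr5:135887669-135887918 and the Bag3 window at chr7:128523333-128523582, both on the plus strand. Each Hspa1 window held 1 motif, GAAGATTC, starting 104 bases before the start site. Hspb1 held 2, GAAGTTTC at 117 and GAACCTTC at 97 bases before the start site. Hsph1 held the related motif TTCNNGAA (TTCTCGAA), 54 or 33 bases before its 2 listed start sites. The windows of Bag3 and Dnajb1 held neither motif, which says only that these letters are not in these windows. Both motifs read the same on the other strand. One or the other was found in 12.8% of the 32851 windows of the same length in the RefSeq table, and at least 2 of them in 1.46%. Hspa1a and Hspa1b shared 247 of their 250 upstream bases (98.8%), with the substitutions C44T, T47C and T249G from Hspa1a to Hspa1b, counted from 1 at the distal end of the window.

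Library totals ran from 18104828 to 32348136 counts, and mitochondrial transcripts took 4.58% to 7.35% of them. All 12 RPE markers examined (Rpe65, Rlbp1, Best1 and others) were counted in every library, with a summed level of 45745 to 68691 CPM, TMM-scaled counts divided by library size, in Young, 30172 to 50589 CPM in Old, 23443 to 63802 CPM in Old-Control and 18340.1 to 32357 CPM in Old-OSK. Surface epithelium genes were also present. A list of 10 such genes (Krt5, Krt14, Krt15, Krt12, Krt13, Krt4, Trp63, Dsg3, Aqp5 and Lypd2), compiled after the data had been seen, summed to 195 to 5882 CPM in Young, 965 to 19954 CPM in Old, 1277 to 4979 CPM in Old-Control and 3550.1 to 27439 CPM in Old-OSK. Most of these genes are known from the cells of cornea, conjunctiva and skin, and all 10 were counted in every library. Rod markers, 10 genes, summed to 150.5 to 2922 CPM in Young and 2018 to 7225 CPM in Old. Their sums were 1539 to 18324 CPM in Old-Control and 2719 to 15405 CPM in Old-OSK. Old-Control replicate 2 and Old-OSK replicate 4 had the highest rod sums, and their part in the results was not tested. In bulk RNA, fewer cells of a type and less RNA per cell cannot be told apart. The 6 libraries whose names carry an M (Young replicates 5 to 7, Old-Control replicates 2 and 3, Old-OSK replicate 4) had 4040 to 5493 counts on 4 Y-linked genes, whereas the other 12 had no more than 93. Y-linked genes are transcribed in males only, so the M goes with male RNA. Sex was therefore not balanced between the groups compared. No Old library carries an M, and in Old-OSK only replicate 4 does.

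Levels within the set spanned a wide range. Per kilobase of exon, the Young libraries held 582 ± 111 CPM of Hsp90aa1 (SD, n = 7), 402 ± 69.0 CPM of Hspa8, 327 ± 37.4 CPM of Hsp90ab1 and 247 ± 107 CPM of Cryab. The 6 other members were far lower on the same scale, from 25.2 ± 10.1 CPM per kilobase for Hspb1 through 13.2 ± 2.19 for Dnajb1, 12.7 ± 1.51 for Bag3, 8.21 ± 6.25 for Hspa1b and 8.04 ± 2.01 for Hsph1 to 6.11 ± 2.22 for Hspa1a. The constitutive HSP70 and both cytosolic HSP90 genes thus had the highest means per kilobase. The spreads (mean ± SD) of Hspa8, Hsp90ab1 and Cryab overlapped, and that of Dnajb1 overlapped with those of Hspb1 and Bag3. The spread of Hspa1b overlapped with those of Dnajb1, Bag3, Hsph1 and Hspa1a, and those of Hsph1 and Hspa1a overlapped each other. In Old-OSK the order from the top was Hsp90aa1 (371 ± 45.9 CPM per kilobase, n = 4), Hsp90ab1 (318 ± 32.9) and Hspa8 (257 ± 8.70), the HSP90 genes within their spread of each other, while Hspb1 (169 ± 94.9) stood beside Cryab (163 ± 11.6) and Hspa1b (70.3 ± 32.8) followed.

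**Figure D1:**
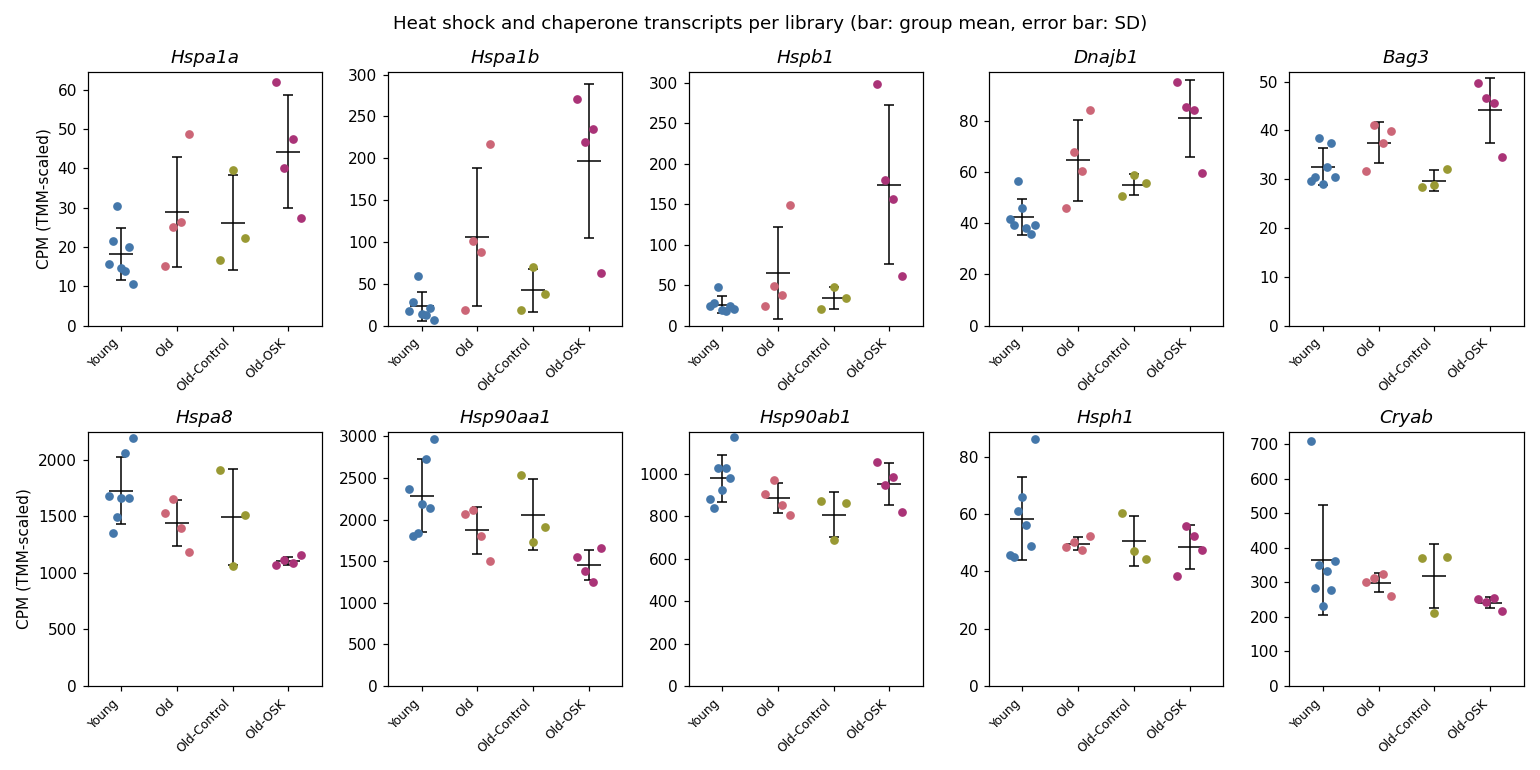
Each panel plots 1 gene, with the groups on the x axis and TMM-scaled CPM on the y axis. Points are libraries, the long bar is the group mean and the error bar the SD. Old-OSK replicates 1 to 3 and Old replicate 4 stand at the top for Hspa1a, Hspa1b, Hspb1 and Dnajb1, with Hspa1b between 217 and 271 CPM in these 4 libraries.

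The inducible HSP70 genes Hspa1a and Hspa1b lie side by side in the class III region of the major histocompatibility complex, Hspa1b at chr17:34956436-34959238 and Hspa1a at chr17:34969190-34972156, both on the minus strand (GRCm38). Hspa1b had 17.5, 28.6, 59.6, 14.2, 12.5, 21.6 and 7.09 CPM in Young replicates 1 to 7. In the Old libraries it had 18.6, 101, 87.5 and 217 CPM. It stood at 18.6, 69.9 and 38.3 CPM in Old-Control and at 271, 219, 235 and 62.8 CPM in Old-OSK. Old replicates 2 to 4 lay above every Young library and Old replicate 1 lay within the Young range. Old-OSK replicates 1 to 3 lay above every Old-Control library, and Old-OSK replicate 4 lay below Old-Control replicate 2. Hspa1b rose with age (log2 fold change 2.20, SE 0.58, edgeR adjusted p = 0.0303), which is 4.60-fold. The difference of Old-OSK from Old-Control was as large, 2.22 (SE 0.78), but did not pass the threshold of 0.05 (edgeR adjusted p = 0.107).

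Hspa1a varied less. It had 15.8, 21.6, 30.5, 14.8, 13.9, 19.9 and 10.5 CPM in Young, 15.3, 25.2, 26.5 and 48.7 CPM in Old, 16.6, 39.7 and 22.2 CPM in Old-Control, and 62.0, 40.0, 47.6 and 27.5 CPM in Old-OSK. The groups overlapped in both comparisons, although the same libraries were at the top as for Hspa1b. The log2 fold change was 0.67 with age (SE 0.32, edgeR adjusted p = 0.178) and 0.76 for Old-OSK against Old-Control (SE 0.41, edgeR adjusted p = 0.249).

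Both genes code for nearly the same protein, and reads from their shared stretches can be assigned to either. Their coding sequences (1923 and 1926 bases) matched at 1889 positions (98.2%), and 58.8% of the 50-base windows of the Hspa1a transcript occurred in that of Hspa1b. The ratio of Hspa1b to Hspa1a counts was nevertheless not constant. It lay between 0.674 and 1.96 in the Young libraries, at 1.22, 4.02, 3.30 and 4.46 in Old, at 1.12, 1.76 and 1.72 in Old-Control, and at 4.37, 5.47, 4.93 and 2.28 in Old-OSK. Hspa1b took 40.3% of the counts of both genes in Young replicate 7, the library with the lowest sum (17.6 CPM), and 81.4% in Old-OSK replicate 1, the library with the highest (332 CPM). With the counts of both genes summed, the log2 fold change was 1.71 with age (SE 0.49, edgeR adjusted p = 0.0391) and 1.82 for Old-OSK against Old-Control (SE 0.64, edgeR adjusted p = 0.107). Hspa1a also overlaps Gm20481 on the opposite strand over 2225 bases, which was listed at 0 in every library. Whether reads in this overlap were left out of the Hspa1a count cannot be told, as the strand setting is not given.

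Hspb1 encodes the small heat shock protein HSP27, which binds actin filaments and is abundant in keratinising epithelia. The gene lies at chr5:135887919-135889563 on the plus strand. It had 24.6, 27.9, 48.3, 18.9, 18.5, 24.0 and 20.0 CPM in Young and 24.3, 49.6, 38.1 and 149 CPM in Old. Old-Control libraries had 20.4, 47.3 and 34.6 CPM, and Old-OSK libraries 299, 180.4, 157 and 61.1 CPM. The lowest Old-OSK library was above the highest Old-Control library, and Old replicate 4 stood apart from the other Old libraries. The log2 fold change of Old-OSK against Old-Control was 2.35 (SE 0.60), the highest of the set, with an edgeR adjusted p of 0.0656. With the replicate number as a block, which pairs 3 libraries of each group, it was 2.64 (SE 0.42) and Hspb1 was called higher (edgeR adjusted p = 0.0499), as it was in the same 6 libraries without the block (2.63, edgeR adjusted p = 0.0263). In Old against Young the difference was 1.33 (SE 0.44, edgeR adjusted p = 0.0650).

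Dnajb1, the main J-domain partner of inducible HSP70, lies at chr8:83608193-83612653 on the plus strand. It had 41.8, 39.1, 56.5, 45.9, 38.2, 35.8 and 39.1 CPM in Young and 46.0, 67.8, 60.2 and 84.0 CPM in Old. It had 50.7, 58.9 and 55.5 CPM in Old-Control and 95.0, 85.2, 84.0 and 59.6 CPM in Old-OSK. Old replicate 1 lay within the Young range and the other 3 Old libraries above it, and the Old-OSK libraries all lay above the Old-Control libraries, Old-OSK replicate 4 by the least. Dnajb1 rose 1.52-fold with age (log2 fold change 0.61, SE 0.15, edgeR adjusted p = 0.0251). For Old-OSK against Old-Control the difference was 0.56 (SE 0.19, edgeR adjusted p = 0.101).

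Bag3 encodes the co-chaperone that links HSP70 and small heat shock proteins to autophagy of misfolded clients, and it lies at chr7:128523616-128546981 on the plus strand. Its lowest, median and highest Young values were 29.0, 30.5 and 38.5 CPM, and Old libraries had 31.6, 41.1, 37.5 and 39.8 CPM. Old-Control libraries had 28.3, 28.8 and 32.1 CPM, below the 49.8, 46.7, 45.6 and 34.5 CPM of the Old-OSK libraries. The groups did not overlap in this last comparison, where the log2 fold change was 0.57 (SE 0.14, edgeR adjusted p = 0.0588). With age it was 0.20 (SE 0.11, edgeR adjusted p = 0.234).

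Hsph1, an HSP110 protein that acts as nucleotide exchange factor of HSP70 and is also an HSF1 target, did not share this pattern. It lies at chr5:149614287-149636376 on the minus strand. Its range was 44.9 to 86.2 CPM in Young (median 56.2), 47.5 to 52.5 CPM in Old, 44.3 to 60.4 CPM in Old-Control and 38.4 to 55.9 CPM in Old-OSK. The highest value was that of Young replicate 7, the library with the lowest Hspa1a and Hspa1b, and Old-OSK replicate 1, the library with the highest Hspa1b and Hspb1, had the lowest. The log2 fold change was -0.23 with age (SE 0.16, edgeR adjusted p = 0.356) and -0.06 for Old-OSK against Old-Control (SE 0.19, edgeR adjusted p = 0.889).

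Among the constitutive members, Hspa8, the cytosolic HSP70 that also uncoats clathrin vesicles, lies at chr9:40800984-40810087 on the plus strand. It ran from 1354 to 2188 CPM in Young (median 1664) and had 1533, 1653, 1394 and 1183 CPM in Old. Old-Control libraries had 1906, 1062 and 1509 CPM, and Old-OSK libraries 1073, 1115, 1083 and 1156 CPM. The 4 Old-OSK libraries were tightly grouped at the low end, but Old-Control replicate 2 was lower than any of them. That library also had the lowest summed level of RPE markers in its group (23443 CPM, against 55872 and 63802 CPM). Its summed level of rod markers was the highest in the group (18324 CPM, against 1539 and 3334 CPM). Low RPE sums were not limited to that library. Old replicate 4 had 30172 CPM and the Old-OSK libraries 18340.1 to 32357 CPM, whereas every remaining library had at least 45745 CPM. Together with Old-Control replicate 2, these libraries had the lowest Hspa8 and also the lowest Hsp90aa1 of all libraries. The part of the RPE and rod levels in the Hspa8 and Hsp90aa1 values was not tested. The log2 fold change was -0.26 with age (SE 0.16, edgeR adjusted p = 0.293) and -0.43 for Old-OSK against Old-Control (SE 0.19, edgeR adjusted p = 0.167).

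Hsp90aa1, the more stress-responsive of the cytosolic HSP90 genes, lies at chr12:110690605-110702728 on the minus strand. It ran from 1802 to 2965 CPM in Young (median 2181) and had 2064, 2115, 1802 and 1499 CPM in Old. Old-Control libraries had 2536, 1727 and 1915 CPM, all above the 1554, 1378, 1249.6 and 1655 CPM of the Old-OSK libraries. It was the only member whose Old-OSK libraries lay below all Old-Control libraries, and its log2 fold change was -0.50 (SE 0.20, edgeR adjusted p = 0.132). With age the value was -0.29 (SE 0.16, edgeR adjusted p = 0.250).

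Hsp90ab1, the constitutive HSP90, lies at chr17:45567775-45573271 on the minus strand and was among the steadiest members. It ran from 838 to 1174 CPM in Young (median 982), 808 to 973 CPM in Old, 688 to 874 CPM in Old-Control and 821 to 1057 CPM in Old-OSK. All groups overlapped. Its log2 fold change was -0.15 with age (SE 0.11, edgeR adjusted p = 0.409) and 0.24 for Old-OSK against Old-Control (SE 0.14, edgeR adjusted p = 0.284), the reverse sign of Hspa8 and Hsp90aa1 in the latter.

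Cryab, αB-crystallin, is a small heat shock protein of lens, muscle and RPE, at chr9:50751325-50756636 on the plus strand. Young replicate 1 had 709.8 CPM, and the other 6 Young libraries lay between 232 and 362 CPM. Old libraries had 299.9, 313, 324 and 261 CPM, Old-Control libraries 369.7, 211 and 373 CPM, and Old-OSK libraries 250.3, 243, 256 and 217 CPM. The same Young library had the highest summed level of 10 lens markers, 2413 CPM, against at most 248 CPM in any Old, Old-Control or Old-OSK library, and its part in the Cryab value was not tested. Young replicates 3 and 2 had the next highest lens sums, 903 and 335 CPM, with Cryab at 350.4 and 285 CPM. The log2 fold change with age was -0.28 (SE 0.24, edgeR adjusted p = 0.464) and it was -0.04 without Young replicate 1. For Old-OSK against Old-Control it was -0.40 (SE 0.29, edgeR adjusted p = 0.412). Cryab overlaps Hspb2 on the opposite strand over 1030 bases, and Hspb2 stood at 1.83 to 4.84 CPM.

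**Figure D2:**
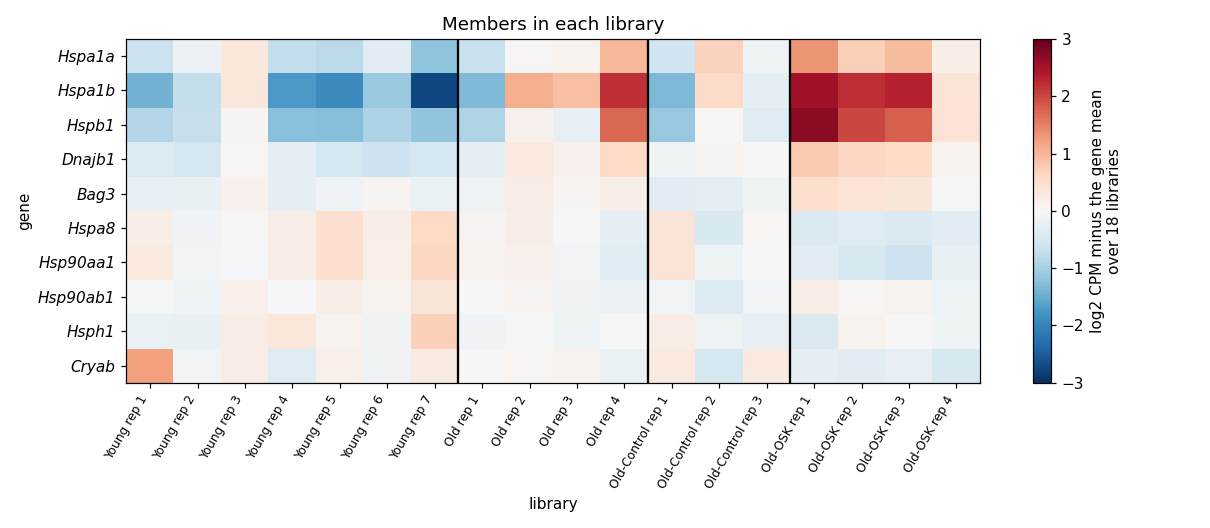
Rows are the 10 genes, columns the 18 libraries in group order, and the colour gives log2 CPM minus the gene's mean over all libraries. Hspa1b and Hspb1 are far above their means in Old replicate 4 and Old-OSK replicates 1 to 3, where Hspa8 and Hsp90aa1 lie below theirs.

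Across the set, 2 of 10 members were called higher and none lower in Old against Young (edgeR, adjusted p under 0.05), while 9.56% of the 15944 genes tested were called, 5.40% higher and 4.16% lower. The Young and Old libraries overlapped for all 10 members and were separate for 9.30% of all genes. The median log2 fold change was 0.03 over the members and 0.00 over all genes. DESeq2 called 3 members, Hspa1b, Dnajb1 and Hspb1, against 15.4% of all genes. For Old-OSK against Old-Control 0 of 10 were called by edgeR, against 0.728% of all genes, 6 of 10 had an unadjusted p under 0.05, against 26.3%, and DESeq2 called 4 (Hspb1, Dnajb1, Bag3 and Hspa1b), against 10.1%. The groups of this comparison did not overlap for 3 members that were higher in Old-OSK (Hspb1, Dnajb1 and Bag3), against 6.55% of all genes, and for 1 that was lower (Hsp90aa1), against 5.84%. The median log2 fold change was 0.40 over the members and -0.03 over all genes. Hspb1 was the member called with the replicate block, against 3.02% of all genes in that fit. In the same 6 libraries without the block 4 members were called (Hspb1, Dnajb1, Bag3 and Hspa1b), against 6.49% of all genes.

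Old-Control against Old compares aged RPE with and without the vector that carries tTA alone. No gene was called by edgeR or DESeq2, and 1 member, Bag3, had an unadjusted p under 0.05, against 3.74% of all genes. The groups overlapped for all 10 members and were separate for 3.18% of all genes. Bag3 stood at 29.7 ± 2.07 CPM in Old-Control (SD, n = 3) and 37.5 ± 4.19 CPM in Old (n = 4), and the log2 fold change was -0.33 (SE 0.14, edgeR adjusted p = 0.900). The values for Hspa1b (-1.33, SE 0.75) and Hspb1 (-0.94, SE 0.57) had the same adjusted p, and without Old replicate 4 they were -0.71 and -0.13. Old libraries enter this comparison and that with Young, and Old-Control libraries enter this comparison and that with Old-OSK, so the 3 comparisons are not independent.

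**Figure D3:**
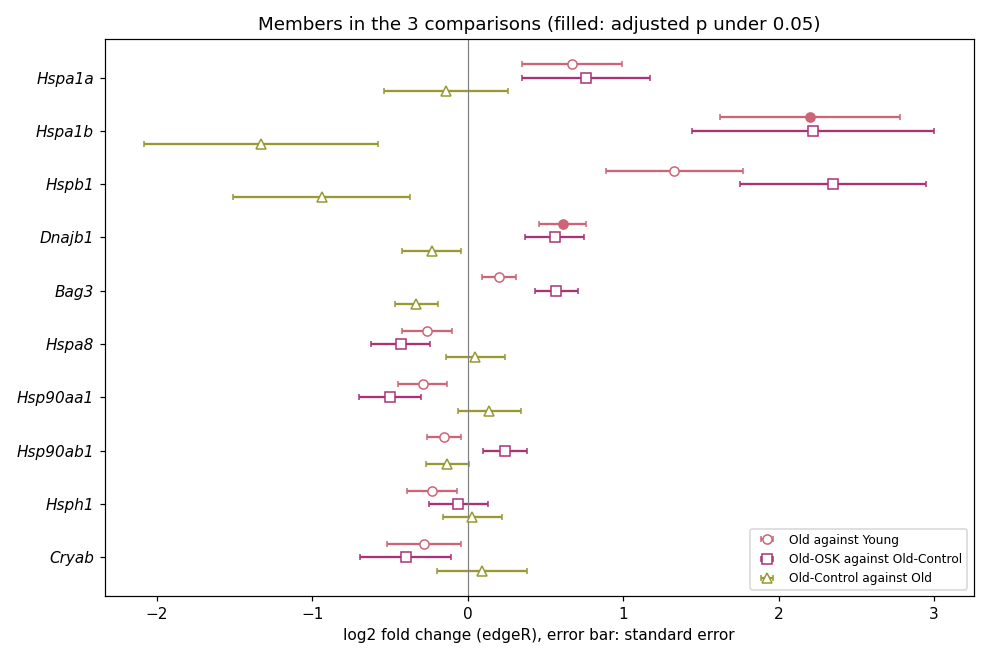
The x axis is the log2 fold change from the edgeR fit and each row is a gene. Markers give the 3 comparisons, error bars the standard error, and filled markers an adjusted p under 0.05. Filled markers appear for Hspa1b (2.20) and Dnajb1 (0.61) in Old against Young.

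Single libraries decided several calls. Hspa1b was called with age in 4 of 11 fits that each left out a library. It was not called without Young replicate 1 (edgeR adjusted p = 0.0537), 4 (0.0566), 5 (0.0647), 6 (0.0596) or 7 (0.0502), or without Old replicate 2 (0.0615), and its adjusted p was highest without Old replicate 4 (0.184, with a log2 fold change of 1.58). Dnajb1 was called in 8 of 11, but not without Young replicate 6 (edgeR adjusted p = 0.0525), Old replicate 2 (0.0668) or Old replicate 4 (log2 fold change 0.45, adjusted p = 0.143). Hspb1 was called with age when Young replicate 3 was left out (1.55, edgeR adjusted p = 0.0343) or Old replicate 1 (adjusted p = 0.0265), and was at 0.52 without Old replicate 4. For Old-OSK against Old-Control, 4 members were called without Old-Control replicate 2: Hspb1 (2.63, edgeR adjusted p = 0.0232), Bag3 (0.51, adjusted p = 0.0309), Hspa8 (-0.65, adjusted p = 0.0242) and Hsp90aa1 (-0.64, adjusted p = 0.0490). Without Old-OSK replicate 4, 3 members were called: Hspb1 (2.60, edgeR adjusted p = 0.0206), Bag3 (0.63, adjusted p = 0.0145) and Dnajb1 (0.64, adjusted p = 0.0383). Over all genes, the fit without Old-Control replicate 2 called 1007 higher and 1874 lower, against 65 and 51 with all libraries. Over the 7 such fits of this comparison the counts ran from 12 to 1007 higher and from 1 to 1874 lower. With age, 233 genes were called higher and 160 lower without Old replicate 4, against 861 and 663 with all libraries. With the M of the library names as a covariate the age difference was 1.93 for Hspa1b (edgeR adjusted p = 0.0902) and 0.51 for Dnajb1 (adjusted p = 0.0788), and among libraries lacking the M it was 1.81 (adjusted p = 0.191) and 0.49 (adjusted p = 0.178).

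Hspa1a, Hspa1b, Hspb1, Dnajb1 and Bag3 ran in parallel from library to library, also within groups. Spearman's rho across the 18 libraries was 0.95 for Hspa1a with Hspa1b, 0.95 for Hspa1b with Hspb1 and 0.90 for Hspa1b with Dnajb1, and 0.97, 0.89 and 0.75 after subtraction of the group means. For Bag3 with Hspa1b it was 0.75 (0.66 within groups). Hspa8 and Hsp90aa1 ran in parallel (0.95, and 0.86 within groups) and ran opposite to Hspa1b (-0.86 and -0.90, and -0.79 and -0.75 within groups). Hsp90ab1 and Hsph1 were not close to Hspa1b, with -0.14 and -0.35. With Hspa8 they had 0.34 and 0.48 (0.57 and 0.48 within groups). With Hsp90aa1 they had 0.31 and 0.36 (0.55 and 0.31 within groups). These coefficients describe points that share library composition and depth.

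The same 4 libraries, Old-OSK replicates 1, 2 and 3 and Old replicate 4, had the highest levels of Hspa1a, Hspa1b, Hspb1 and Dnajb1 and also the highest summed level of the surface epithelium genes (27439, 18911, 17714 and 19954 CPM). They were also the 4 lowest for Hsp90aa1, and 3 of them were among the 4 lowest for Hspa8. Old replicate 1, within the Young range for Hspa1a, Hspa1b, Hspb1, Dnajb1 and Bag3, had 965 CPM of these epithelial genes, and Old-OSK replicate 4, the lowest Old-OSK library for each of these 5 members, had 3550.1 CPM. Within Young, replicate 3 had the highest Hspa1b, Hspb1 and Dnajb1 and the highest epithelial sum (5882 CPM), and replicate 7 the lowest Hspa1a, Hspa1b and epithelial sum (195 CPM). With the mean log2 level of the epithelial genes as a covariate, a fit added after the data had been seen, no member was called in any comparison, against 2.59% of all genes with age and 0.220% in Old-OSK against Old-Control. The age difference was then 0.63 for Hspa1b (edgeR adjusted p = 0.175), 0.26 for Dnajb1 (adjusted p = 0.188) and 0.05 for Hspb1 (adjusted p = 0.947). Hspa1a turned to -0.11 with age and to -0.10 for Old-OSK against Old-Control in this fit. The difference of Old-OSK from Old-Control was 1.07 for Hspb1 (edgeR adjusted p = 0.274), 0.46 for Hspa1b (adjusted p = 0.760), 0.36 for Bag3 (adjusted p = 0.528) and 0.17 for Dnajb1 (adjusted p = 0.816). That covariate differs between the groups itself, so its part and that of the group cannot be told apart. Immediate early genes, which are induced within minutes of disturbing a tissue, summed to 80.0 to 382 CPM in Young, 123 to 406 CPM in Old, 141 to 309 CPM in Old-Control and 261 to 450.4 CPM in Old-OSK. Of these 11 genes, 5 were called higher in Old than in Young by edgeR, against 5.40% of all genes, and 3 of their 4 highest libraries were also among the 4 highest for Hspa1b. The other was Young replicate 7 (382 CPM), the library lowest for Hspa1a and Hspa1b. Their part in the result was not tested.

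**Figure D4:**
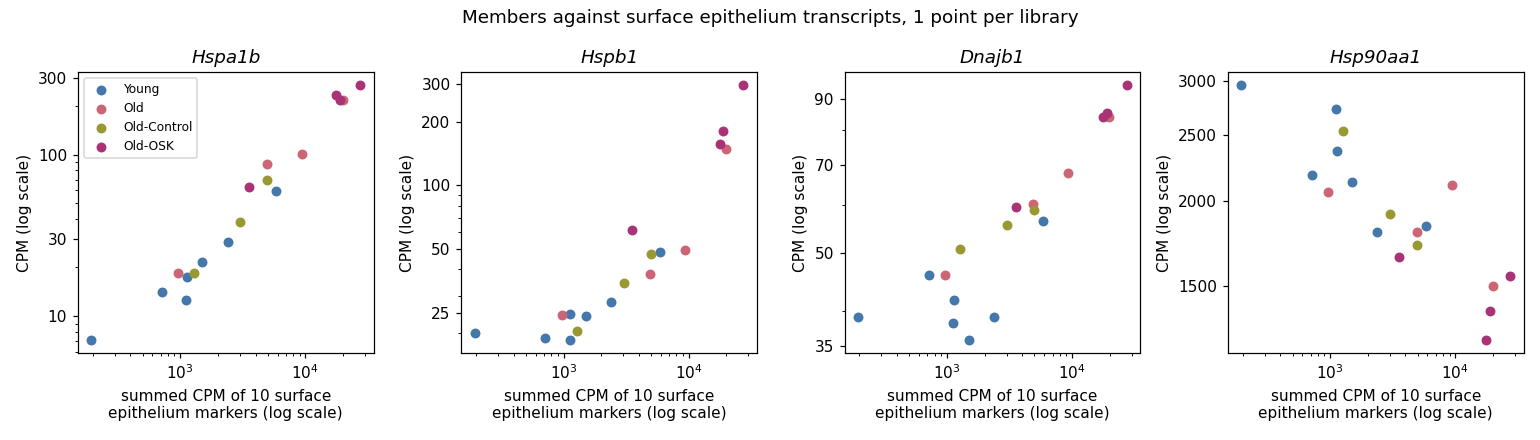
Each panel plots a gene's CPM (y axis, log scale) against the summed CPM of 10 surface epithelium genes (x axis, log scale), 1 point per library, coloured by group. Hspa1b, Hspb1 and Dnajb1 are highest at the right, in Old-OSK replicates 1 to 3 and Old replicate 4, where Hsp90aa1 is lowest.

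The spread between libraries of a group was largest for Hspa1b, Hspb1 and Hspa1a among the 10 members. The within-group SD of log2 CPM was 1.10 for Hspa1b, at the 93.0 percentile of all genes tested, 0.78 for Hspb1 (82.3 percentile) and 0.56 for Hspa1a (71.6 percentile). It was 0.39 for Cryab (59.6 percentile), 0.26 for both Dnajb1 and Hsph1 (44.5 and 44.9 percentile), 0.18 for Bag3 and 0.16 for Hsp90ab1 (24.0 and 17.9 percentile), with a median of 0.30 over all genes. Among genes within 1 log2 unit of the same mean level, Hspa1b lay at the 97.9 percentile, Hspb1 at 96.1, Hspa1a at 90.2, Cryab at 85.0, Hsph1 at 75.2, Dnajb1 at 74.9, Bag3 at 44.1 and Hsp90ab1 at 14.5.

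The genes whose levels followed 3 of the members most closely over the 18 libraries were also read out. For Hspa1a they were Ell and Dmrta2 (Spearman's rho 0.98 each), then Tmprss11a, Capn1 and Grhl3 (0.97 each). Tmprss11a is a protease of squamous epithelia and Grhl3 a transcription factor of the epidermal barrier. For Hsp90aa1 they were As3mt and Dnaja1 (0.97 each), Osbpl1a, Btg3 and G3bp2 (0.96 each). DNAJA1 is a J-domain protein that works with HSC70, the product of Hspa8. For Cryab the closest were Myl4, Ddrgk1 and Rtn4ip1 (0.87 each), Foxred1 and Aga (0.86 each).

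The rest of the chaperone network was read from 7 lists with 83 further genes, of which 82 were tested. With age 1 was called higher and 2 lower by edgeR, against 5.40% and 4.16% of all genes, and the median log2 fold change of the 82 was -0.02. DESeq2 called 3 higher and 4 lower, against 15.4% of all genes. Hspbp1, a nucleotide exchange factor of HSP70, rose with age: the 7 Young libraries had 22.5 ± 2.12 CPM (SD) and the 4 Old libraries 27.5 ± 2.13 CPM (log2 fold change 0.29, edgeR adjusted p = 0.0431). Serpinh1, the collagen chaperone HSP47 of the endoplasmic reticulum, fell from 169.8 ± 13.0 to 124 ± 17.3 CPM (-0.46, edgeR adjusted p = 0.0376). Fibroblast and stromal markers, 6 genes, summed to 151 to 325 CPM in Young and 107 to 189 CPM in Old, 1 of the 6 was called lower with age (Col1a2, -1.08, edgeR adjusted p = 0.00266), and their part in the value of Serpinh1 was not tested. Dnajb14, a J-domain protein of the endoplasmic reticulum membrane, fell from 116 ± 10.5 to 93.7 ± 7.25 CPM (-0.30, edgeR adjusted p = 0.0464). These calls were not stable: with 1 library left out at a time, Hspbp1 was called in 3 of 11 fits, Serpinh1 in 2 and Dnajb14 in 1, with values of 0.25 to 0.34, -0.54 to -0.37 and -0.34 to -0.25, and the adjusted p was highest without Old replicate 4 (0.178, 0.173 and 0.201). None of the 3 was called with M or the epithelial score as a covariate, or in the libraries with shared replicate numbers. In Old-OSK against Old-Control none of the 82 was called by edgeR, against 0.728% of all genes, 17 had an unadjusted p under 0.05, against 26.3%, and the median was -0.12. DESeq2 called Dnajc2 higher and Cdc37l1 and Hspb6 lower in that comparison, against 10.1% of all genes. In Old-Control against Old none was called by either tool, and 2 had an unadjusted p under 0.05, against 3.74% of all genes.

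By list, none of the 6 genes in the heat shock factor list, which includes the binding proteins Hsbp1 and Hsf2bp, was called. Hsf1, the factor that drives the inducible members, stood at 32.9 ± 4.46 CPM in Young, 32.8 ± 3.35 in Old, 33.2 ± 2.95 in Old-Control and 28.0 ± 2.43 in Old-OSK (SD, n = 7, 4, 3 and 4). Its log2 fold change was 0.00 with age (SE 0.10, edgeR adjusted p = 0.994) and -0.25 for Old-OSK against Old-Control (SE 0.13, edgeR adjusted p = 0.223). HSF1 is regulated mainly at the level of its protein. Of the 11 other HSP70 and HSP110 genes none was called. The lowest p for Old-OSK against Old-Control was that of Hspa4l, an HSP110 relative (-0.50, SE 0.17, edgeR adjusted p = 0.0996). Hspa5, the HSP70 of the endoplasmic reticulum, had 790.4 ± 224 CPM in Young and 698 ± 40.2 CPM in Old (-0.18, edgeR adjusted p = 0.586).

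Of 20 other J-domain genes, 16 had a negative log2 fold change in Old-OSK against Old-Control and none was called, with a median of -0.17. Over all genes 47.1% had a positive value in that comparison and the median was -0.03. Dnaja1 was at 268 ± 57.9 CPM in Old-Control and 213 ± 9.49 CPM in Old-OSK (-0.33, SE 0.16, edgeR adjusted p = 0.211). Among 10 HSP70 co-chaperones, Bag2, an inhibitor of the ubiquitin ligase CHIP, had the highest value in that comparison (1.10, SE 0.44, edgeR adjusted p = 0.138) and was called in the same 6 libraries as above without the block. Of these 10, 8 had a negative value, with a median of -0.12, and none was called by edgeR over all libraries, Bag4 having the lowest p (-0.54, SE 0.19, edgeR adjusted p = 0.107). Among 12 genes of other HSP90 proteins and HSP90 partners, Cdc37l1, a relative of the kinase co-chaperone CDC37, was at 144 ± 33.5 CPM in Old-Control and 92.0 ± 5.82 CPM in Old-OSK (-0.64, SE 0.16, edgeR adjusted p = 0.0610).

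Of the 6 other small heat shock protein genes tested, 5 had a negative log2 fold change in Old-OSK against Old-Control, with a median of -0.93, and 1 a positive one (Hspb8, 0.39, SE 0.25, edgeR adjusted p = 0.330). None was called by edgeR over all libraries, and with age 3 of the 6 were positive. Hspb6, a small heat shock protein of muscle, stood at 59.6 ± 12.3 CPM in Old-Control and 32.1 ± 10.4 CPM in Old-OSK (-0.89, SE 0.23, edgeR adjusted p = 0.0656), and it was called lower with the replicate block. In the same comparison Hspb7, a cardiac and skeletal muscle form, had -1.59 (SE 0.67, edgeR adjusted p = 0.147). The summed level of 6 skeletal muscle markers, of which 5 were tested, ran from 384 to 911 CPM in Old-Control and from 130.4 to 427 CPM in Old-OSK, and its part in the values of Hspb6 and Hspb7 was not tested. Cryaa, the αA-crystallin of the lens, had 1556 CPM in its highest Young library, replicate 1, and 2.55 CPM in its lowest. Its log2 fold change with age was -3.92 (SE 1.77, edgeR adjusted p = 0.153), and DESeq2 called it. Cryaa is itself among the 10 lens markers, whose sum was also highest in Young replicate 1 (2413 CPM). The list of 17 chaperonin and prefoldin genes also holds Serpinh1. Most of its genes fold actin and tubulin or help mitochondrial proteins. Its median was 0.14 for Old-OSK against Old-Control, with 13 positive values and none called, against 47.1% positive over all genes.

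**Figure D5:**
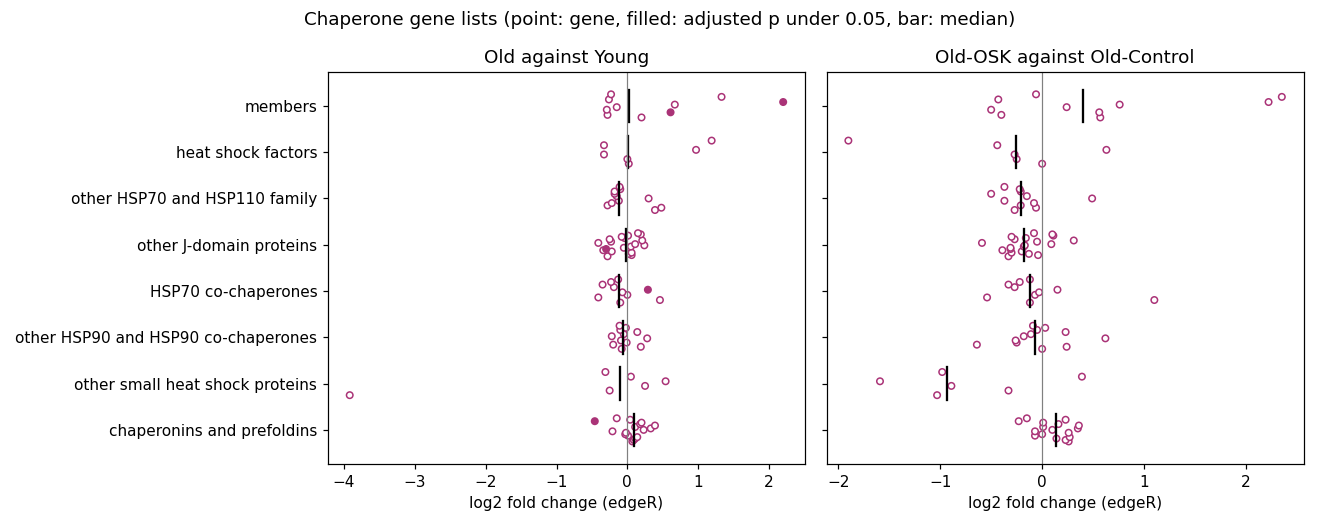
Each row is a list of chaperone genes, the x axis is the log2 fold change from the edgeR fit, points are genes, filled points have an adjusted p under 0.05, and the bar is the list's median. The members spread widest to the right in both panels, up to 2.20 with age and 2.35 for Old-OSK against Old-Control, and Cryaa, a small heat shock protein, lies furthest to the left at -3.92 with age.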

How the data were processed

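The authors deposited 1 table of raw read counts per gene for 18 libraries. Per the submitters' processing notes, STAR 2.7.1a and featureCounts 1.6.2 were used, and the builds GRCh38, hg38, GRCm38 and mm10 are named without their roles. The annotation, strand setting and treatment of reads that match several genes are not given in the sources used here, which matters for Hspa1a and Hspa1b. Reads were amplified by PCR and the table has no molecular identifiers, so counting error is a lower limit.

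Counts were filtered with filterByExpr (minimum count 10, minimum total 15; 15944 genes left), scaled by TMM and fitted over all 18 libraries with 4 group means by the quasi-likelihood test of edgeR 4.0.16 in R 4.3.3, with Benjamini-Hochberg adjustment over all genes and calls at an adjusted p under 0.05. CPM values are counts scaled by library size and TMM factor (edgeR's cpm), and log2 CPM has a prior count of 2. DESeq2 1.42.0, other filters and scalings, covariates, the replicate block and leaving out each library were alternatives. On simulated counts, 72.0% of genes changed 2-fold and 98.0% of those changed 4-fold were recovered for Old against Young over 15622 genes. The simulation gave every gene the same moderate spread between libraries. These shares therefore do not apply to members that vary as much as Hspa1b and Hspb1 (within-group SD of log2 CPM 1.10 and 0.78).

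Named genes were all members, Hsf1 and the 5 genes closest to Hspa1a, Cryab and Hsp90aa1. Of the 3 genes lowest in p in each list and comparison, only some were named. Others were named for the calls they received. Hspa5 was named after its values were seen. The members and lists were chosen with earlier results of these data known. Loci come from the GENCODE annotation of GRCm38 and upstream sequences from RefSeq.

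No 2 libraries of a group agreed within sampling noise (the lowest chi-square divided by genes was 20.2), so none was merged. Old-OSK and Old-Control libraries with the same number deviated together (r = 0.103, 0.421 and 0.339 across genes). The numbers in the titles served as a pairing only in the alternative fits with a replicate block, and the main fit has no block. Old-Control replicates 2 and 3 carry the M in their names, whereas Old-OSK replicates 2 and 3 do not. Old-OSK replicate 1 deviated more with Old-Control replicate 3 (r = 0.392) than with its own number, and no label says what a number marks.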

Additional observations from a re-analysis of the deposited data

Results flagged for a closer look

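In 30 groups of 4 to 7 libraries, one for each member and group, 3 held a library far from the others of its group by Dixon's test at the 95% level, where chance alone flags about 1 in 20 groups. Hspb1 had 48.3 CPM in Young replicate 3, and the other 6 Young libraries had 18.5 to 27.9 CPM. Hspa1b had 59.6 CPM in the same library, against 7.09 to 28.6 CPM in the others. This library also had the highest summed level of surface epithelium genes among the Young libraries (5882 CPM). Cryab had 709.8 CPM in Young replicate 1, against 232 to 362 CPM in the others, and this library had the highest summed level of lens markers (2413 CPM), while Young replicate 3, next with 903 CPM, had 350.4 CPM of Cryab. The part of these transcripts in the 3 values was not tested.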

How the results depend on the processing

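Other scaling (DESeq2 size factors), robust empirical Bayes and no low-count filter left the number of called members at 2 for Old against Young and 0 for Old-OSK against Old-Control. For Old against Young, the libraries lacking M are the same set as those with shared replicate numbers. The count for this comparison fell to 0 in that set, with and without a replicate block. It also fell to 0 with the letter M as a covariate and with the epithelial score as a covariate. It ran from 0 to 3 without single libraries. For Old-OSK against Old-Control it was 1 at a mean count of at least 50 (Bag3), 4 with DESeq2, 1 with the replicate block, 4 in the same 6 libraries without the block, and 0 to 4 without single libraries. Over all genes, 861 were called higher and 663 lower with age. The lower count was 396 without the low-count filter and 425 at a mean count of 50, and the higher count was 1495 with DESeq2. Counts higher and lower were 315 and 285 with M as a covariate, 0 and 0 with the replicate block, 105 and 86 without it or without M libraries, and 205 and 208 with the epithelial score. Leaving out single libraries gave 233 to 1422 higher and 160 to 734 lower. For Old-OSK against Old-Control 65 were called higher and 51 lower. The lower count was 29 with DESeq2 size factors, 22 without the filter and 79 at a mean count of 50. Counts higher and lower were 984 and 619 with DESeq2, 41 and 17 with M as a covariate, 2 and 0 in a fit of these groups alone, 381 and 80 with the replicate block, 898 and 92 without it, and 32 and 3 with the epithelial score. Leaving out single libraries gave 12 to 1007 higher and 1 to 1874 lower.

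With the epithelial score Hspa1a turned from 0.67 to -0.11 with age and from 0.76 to -0.10 for Old-OSK against Old-Control, and Hsph1 to 0.06 in the latter, where Hsph1 ran from -0.15 to 0.09 without single libraries (0.00 without Old-OSK replicate 1). For Old-Control against Old, Hspa1a turned to 0.10 with M, 0.16 with the replicate block, 0.22 in the same libraries without it and 0.18 with the epithelial score, Hspa8 to -0.08 with the block, -0.04 without it and -0.03 with the score, Hsph1 to -0.02 with the score and Cryab to -0.03 with the block. Without single libraries, values of this comparison ran from -0.56 to 0.23 for Hspa1a, -0.16 to 0.25 for Hspa8, -0.04 to 0.25 for Hsp90aa1, -0.12 to 0.11 for Hsph1 and -0.04 to 0.31 for Cryab. The causes were not tested. Of the 4 members called in the same 6 libraries without the block, Hspb1 alone was called with it. In the other comparisons, libraries with the same number did not all deviate together.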
